A study of Mus musculus with 4 samples.

Results

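Rhox5, Tsx and Drd4 are 3 mouse genes known for responding to androgen in the testis. Their members were taken as every probe set of the array whose only gene symbol in the platform annotation is one of these names. The rule found 1 probe set for each gene, 3 of the 12488 on the array, which names 8251 genes in this way. The names of these probe sets carry no mark of cross-hybridisation, and all 3 passed the filter on dim signal that kept 7453 probe sets for testing.

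Androgen acts on the seminiferous epithelium through its somatic cells. In Sertoli cells, the nurse cells that surround the germ cells, the hormone changes transcription within hours through short DNA elements near its target genes. Rhox5, formerly Pem, encodes a homeobox transcription factor of an X-linked cluster and is the most widely used readout of androgen action in Sertoli cells. Tsx is a testis-specific X-linked gene that lies beside Xist in the X inactivation centre. Drd4 encodes a dopamine receptor best known from the brain, whose transcript in the testis is known to depend on androgen action in Sertoli cells.

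The study used hypogonadal (hpg) mice, which lack gonadotropin-releasing hormone and so make little testosterone of their own. Every animal carried this defect and had first received testosterone proprionate, the injectable ester usually spelled propionate, which was then withdrawn. The group T+O is 1 array of withdrawn testes after 2 weeks of treatment. The group T+T is 3 arrays by title. Replicate 1 is described as treated again for 4 hours after the withdrawal, with no length given for its first treatment. Replicates 2 and 3 are described as treated for 2 weeks and withdrawn, with no later treatment named, so their place in T+T rests on the title. Strain, age, the length of the withdrawal and the number of animals behind each array are not given in the labels. P-values therefore measure the spread between these arrays, which may be technical. In whole-testis RNA, fewer cells of a type and less RNA per cell cannot be told apart.

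The start regions of the 3 genes are shown because androgen response elements can lie near a gene's start. They are from RefSeq on build GRCm38.p6, plus strand, and hold the bases before the annotated start. All 3 genes were found in that table. The Rhox5 window is chrX:37754358-37754607 and the Tsx window chrX:103414217-103414466, each 250 bases. The Drd4 window, chr7:141291768-141291973, was stopped at 206 bases because RefSeq also lists an earlier start. Capitals mark the 6-base core of the androgen response element, AGAACA or its reverse complement TGTTCT.
Rhox5: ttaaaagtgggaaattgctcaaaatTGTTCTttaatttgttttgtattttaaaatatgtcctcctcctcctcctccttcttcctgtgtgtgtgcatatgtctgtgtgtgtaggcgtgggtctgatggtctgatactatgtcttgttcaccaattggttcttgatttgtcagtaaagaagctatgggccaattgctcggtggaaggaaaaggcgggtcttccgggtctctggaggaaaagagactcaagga
Tsx: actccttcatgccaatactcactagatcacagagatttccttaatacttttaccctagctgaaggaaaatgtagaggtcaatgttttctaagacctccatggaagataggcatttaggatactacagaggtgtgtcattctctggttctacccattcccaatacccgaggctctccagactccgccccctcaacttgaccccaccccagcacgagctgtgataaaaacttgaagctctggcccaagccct
Drd4: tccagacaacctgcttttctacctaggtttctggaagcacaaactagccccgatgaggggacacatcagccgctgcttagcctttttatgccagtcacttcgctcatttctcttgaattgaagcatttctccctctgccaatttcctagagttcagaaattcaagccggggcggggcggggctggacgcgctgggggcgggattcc

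The core occurred once in the 250 bases before Rhox5, at -225 to -220 from the start, and had 0 matches before Tsx and before Drd4. On either strand it is held by 16.1% of all 32851 RefSeq windows of this length, so a single match is a description of the letters and not a binding site. Rhox5 is known to be transcribed from a distal and a proximal promoter, the latter being the one used in Sertoli cells under androgen. The table does not say which of them this start is. The CCAAT box (CCAAT or ATTGG) had 3 matches before Rhox5, 2 of which overlap, 2 before Tsx and 1 before Drd4, against 33.8% of all windows with any. The GC box (GGGCGG or CCGCCC) had 0, 1 and 3 matches in the same order, 2 of the Drd4 matches overlapping, against 32.7% of windows. TATAAA had 0 matches on either strand before all 3 genes. Matches and base content were counted over 250 bases for each gene, which for Drd4 runs past the 206 printed and past the earlier start. Over these 250 bases Drd4 was the richest in G and C, at 56.8% with 12 CpG. Rhox5 had 42.8% and 4, and Tsx 47.2% and 3, against medians of 52.4% and 6 over all windows.

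The question the titles pose is whether renewed testosterone changes transcript levels in the androgen-deprived testis. Signals are given after each array was scaled to a common mean that leaves out the brightest and dimmest 2% of probe sets. None of the 3 genes passed the test between T+T and T+O. All 3 T+T arrays lay above T+O for Rhox5 and Drd4 and below it for Tsx. The data thus show no change past the threshold for genes known as androgen-responsive, and the name describes their known biology and not a response measured here. None of 3 members was past it in limma, in either direction, against 0.0268% of the 7453 probe sets higher in T+T and 0% lower. At an unadjusted p under 0.05 the counts were 0 of 3 members and 581 of 7453 probe sets.

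**Figure D1:**
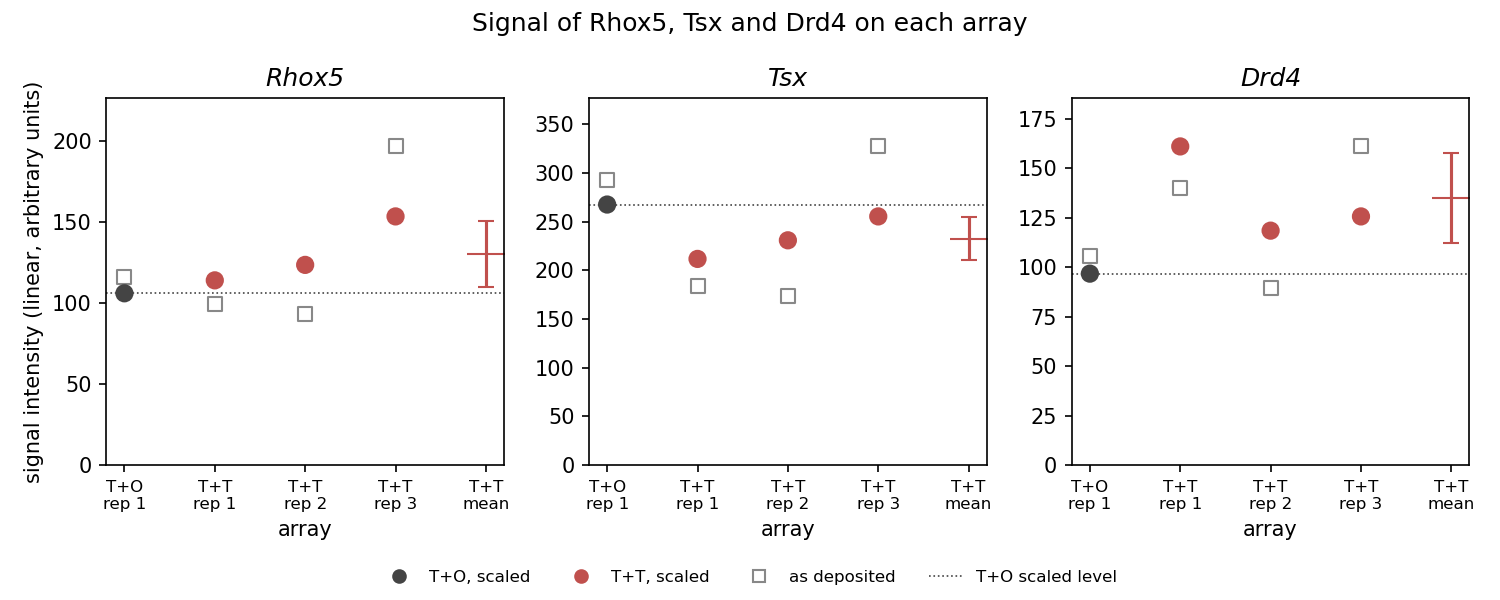
Signal intensity on a linear axis from 0 (arbitrary units) of Rhox5, Tsx and Drd4 on the T+O array (grey) and the 3 T+T arrays (red) after scaling, with the T+T mean ± SD (n = 3) and the deposited values as open squares. After scaling, T+O is the lowest array for Rhox5 (106) and Drd4 (96.8) and the highest for Tsx (267).

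The scaled Rhox5 signal was 106 in T+O and 114, 124 and 153 on T+T replicates 1, 2 and 3. The T+O array was the lowest, and T+T replicate 3 stood highest. The gap between T+O and its nearest T+T array, replicate 1, was 0.10 on the log2 scale, smaller than the SD of 0.21 among the T+T arrays, so these neighbours did not differ beyond that spread. The T+T mean was 130 ± 20.6 (SD, n = 3), and its log2 difference from T+O was 0.26 ± 0.23 (SE, the standard error of the fit; adjusted p = 0.86, limma). Log2 values here are log2(signal + 10), which understates the change of dim probe sets. The 95% interval ran from 0.826-fold to 1.75-fold. A doubling of Rhox5 lay outside this interval, which holds only for this scaling, for groups by title and with a single T+O array. Intervals under other scalings are not given here. Since only replicate 1 is described as treated again, the interval does not bound a response to renewed testosterone.

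Tsx had 267 on the T+O array and 212, 231 and 255 on T+T replicates 1, 2 and 3. Here T+O was the highest array and T+T replicate 1 the lowest. The nearest T+T array, replicate 3, was 0.06 below T+O on the log2 scale, within the SD of 0.13 among T+T arrays. With other scalings this gap was past the SD, at 0.18 against 0.07 after median scaling and 0.22 against 0.04 after scaling to Sertoli cell markers. The T+T mean was 233 ± 21.9 (SD, n = 3), a log2 difference of -0.20 ± 0.19 (SE; adjusted p = 0.88, limma). Its 95% interval, from 0.638-fold to 1.19-fold, lay lower than that of the other two genes but overlapped both.

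Drd4 had 96.8 on the T+O array and 161, 118 and 126 on T+T replicates 1, 2 and 3. T+O was again the lowest array, and the highest was T+T replicate 1. The gap from T+O to the nearest T+T array, 0.27, was larger than the SD of 0.22 among the T+T arrays. It was smaller than the SD after median scaling, at 0.22 against 0.26, and after scaling to Sertoli cell markers, at 0.17 against 0.32. The T+T mean was 135 ± 22.8 (SD, n = 3), a log2 difference of 0.43 ± 0.24 (SE; adjusted p = 0.73, limma). The 95% interval ran from 0.921-fold to 1.97-fold.

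The 3 comparisons of a T+T array with T+O share the T+O array. An order in which T+O stands outside the T+T arrays is common here. All 3 T+T arrays lay above T+O, as for Rhox5 and Drd4, for 29.5% of the probe sets kept, and all 3 lay below it, as for Tsx, for 23.7%. The exact permutation test over the 4 arrays gave p = 0.5 (two-sided) for each of the 3 genes. The smallest p this design allows is 0.25, so it cannot reach the threshold. None of the 3 genes was at least 1.5-fold to one side on all 3 T+T arrays, where 1.82% of probe sets lay above and 2.21% below.

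**Figure D2:**
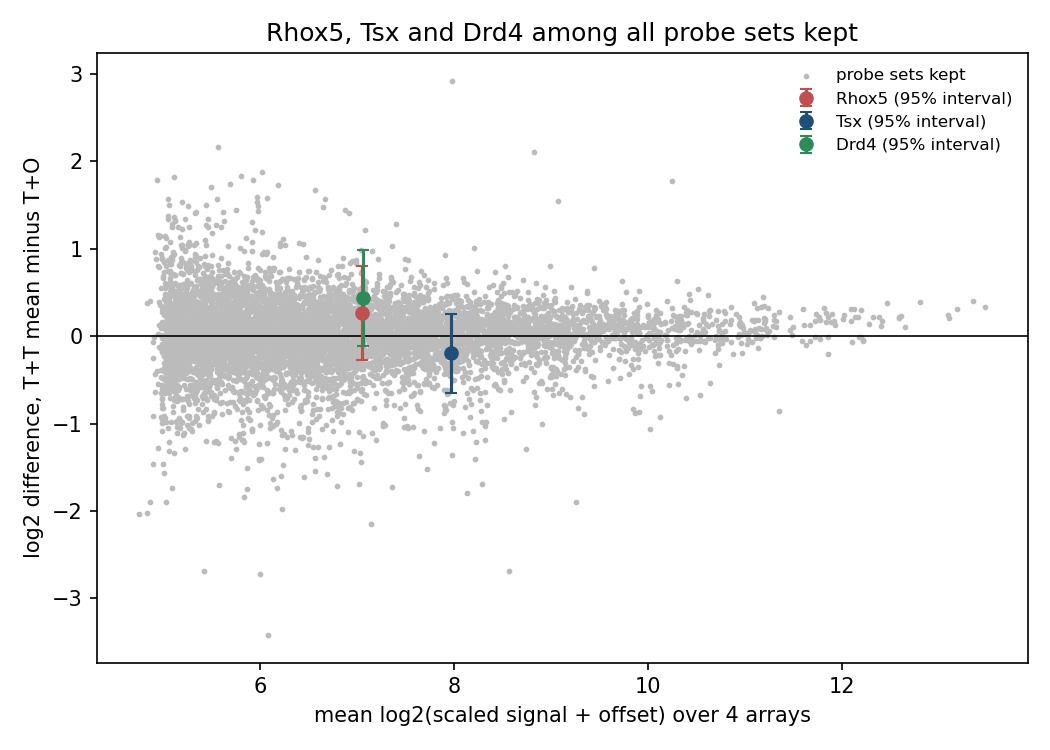
Log2 difference of the T+T mean from T+O (vertical axis) against the mean log2(scaled signal + 10) over 4 arrays (horizontal axis) for the 7453 probe sets kept (grey), with Rhox5, Tsx and Drd4 and their 95% limma intervals. All 3 intervals include 0, and the 3 genes lie inside the cloud of probe sets of like signal.

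By size of difference, Drd4 stood at the 80.2nd percentile of the probe sets kept, Rhox5 at the 59.98th and Tsx at the 48.5th, without regard to sign. The median absolute difference of all probe sets kept was 0.21 on the log2 scale. The 3 genes were measured at moderate to bright levels: their mean signal stood at the 77.7th (Rhox5), 87.5th (Tsx) and 77.8th (Drd4) percentile of all probe sets without controls. The T+T arrays varied for Rhox5 and Drd4 about as much as for the typical probe set, at the 52.4th and 55.8th percentile of the SD, and less for Tsx, at the 28.2nd. The median SD was 0.20.

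The arrays whose title and description match are T+O and T+T replicate 1, and only replicate 1 is described as given testosterone again for 4 hours. This 1 pair has no replicate check. Drd4 was 1.60-fold higher on T+T replicate 1, past the 1.5-fold mark that 6.83% of probe sets (509 of 1329 past it either way; 184 of 1870 without scaling) passed upward. It was under the mark with the offset at the 50th percentile, at 1.49-fold, and without scaling, at 1.30-fold. Rhox5 was 1.07-fold higher, and without scaling it lay on the other side of T+O, at 0.867-fold. Tsx was at 0.799-fold, short of the mark that 11% of probe sets passed downward. Without scaling it was past that mark, at 0.642-fold. Most of the 1870 probe sets past the mark without scaling were lower on T+T replicate 1, as only 184 were higher. As deposited, that array was dimmer than T+O, with means of 84.1 and 106 without the extreme 2% at each end. Which gene differed most on this pair thus turned with the scaling: Drd4 with it, Tsx without.

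The descriptions of T+T replicates 2 and 3 allow a second reading, in which both are withdrawn testes and replicate 1 is compared with the other 3 arrays. Drd4 then had 161 on replicate 1 against 114 ± 15.1 (SD, n = 3) on the others, a log2 difference of 0.48 ± 0.24 (SE; adjusted p = 0.92, limma). Tsx had 212 against 251 ± 18.7, a log2 difference of -0.23 ± 0.20 (SE; adjusted p = 0.94, limma). For Rhox5 this reading turned the direction: it had 114 against 128 ± 24.0, a log2 difference of -0.14 ± 0.26 (SE; adjusted p = 0.97, limma). Replicate 1 was the highest of 4 arrays for Drd4, as for 25.6% of probe sets, and the lowest for Tsx, as for 26.3%. The exact permutation p (two-sided) was 0.25 for Drd4 and Tsx, the smallest possible, and 0.75 for Rhox5. No probe set passed in limma under this reading, where 380 had an unadjusted p under 0.05.

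The scaling of the arrays bears on which side of T+O a member lay. As deposited, the mean of each array without the extreme 2% at each end ran from 72.9 to 124, and T+T replicate 3 was the brightest array. The deposited Rhox5 signals were 116 on T+O and 99.1, 93.1 and 197 on T+T replicates 1, 2 and 3, so that 2 of 3 T+T arrays lay below T+O before scaling. Deposited Tsx was 292 on T+O and 184, 174 and 328 on the T+T arrays. Deposited Drd4 was 106 on T+O and 140, 89.3 and 161. Scaling by the median, by quantiles or by the trimmed mean put each gene on 1 side of T+O on all 3 T+T arrays, and the deposited values did so for none of them. The mean over T+T kept its side for each gene without scaling, at 0.07 for Rhox5, -0.40 for Tsx and 0.24 for Drd4 on the log2 scale, where the median of all probe sets was -0.16.

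**Figure D3:**
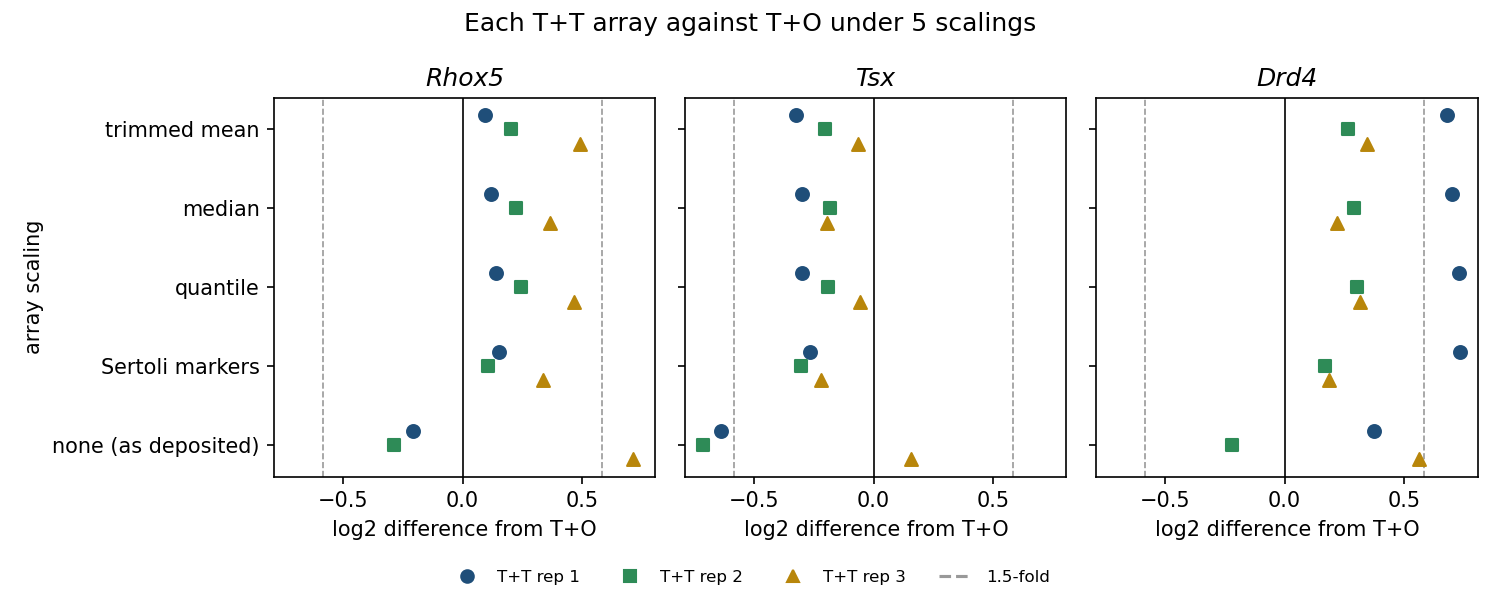
Log2 difference of each T+T array from T+O (horizontal axis) for Rhox5, Tsx and Drd4 under each way of scaling the arrays (vertical axis), with symbols for T+T replicates 1, 2 and 3 and dashed lines at 1.5-fold. Under every scaling drawn all symbols of a gene lie on 1 side of 0, and with the values as deposited each gene has symbols on both sides.

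Because Rhox5 and Drd4 are known as Sertoli cell transcripts, the members were set beside other Sertoli cell markers. Of 15 listed markers, 13 had a named probe set and 12 were kept. Amh, which Sertoli cells make before puberty, lay under the filter. The summed signal of the 12 was 3417 on T+O and 3407, 3963 and 3954 on T+T replicates 1, 2 and 3, so T+O lay between the T+T arrays. The T+T mean was above T+O for 11 of the 12, by only 0.0045 on the log2 scale for Inhbb, and none passed (limma, lowest adjusted p = 0.45). The median log2 difference of the 12 was 0.14, against 0.03 over all probe sets kept. Other probe sets of these genes that were kept had -0.05 (Clu), 0.0014 (Gata1) and 0.38 (Dhh). The exception among the 12, Kitl, which encodes the Sertoli cell ligand of the germ cell receptor Kit, had that lowest adjusted p. It had 49.9 on T+O and 14.4, 12.6 and 17.4 on T+T, a log2 difference of -1.28. All its T+T signals lay under the filter level of 22.7, so Kitl was kept only through the T+O array, which favours this direction. When the arrays were instead scaled to these markers, an alternative added after the values were seen, the log2 differences were 0.20 for Rhox5, -0.26 for Tsx and 0.36 for Drd4. Each gene then still had all 3 T+T arrays on its side of T+O. Kitl, which went against the other markers, was among the markers used for this scaling. These values therefore depend in part on Kitl, and scaling without it was not run.

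Markers of other cell types were summed in the same way. The 8 spermatid markers, all kept, summed to 26509 on T+O and 26750 to 33997 on T+T, and the 6 spermatocyte markers kept of 7 to 7850 and 7534 to 9213. Single spermatocyte markers went apart from that sum, most of which came from Ldhc. Sycp1, of the synaptonemal complex, had 389.9 on T+O and 13.5, 38.5 and 36.2 on T+T, a log2 difference of -3.42 (adjusted p = 0.11, limma). Ccna1, the meiotic cyclin, had 256 on T+O and 423, 425 and 316 on T+T, 0.57 higher on the log2 scale (adjusted p = 0.59, limma). The 5 Leydig cell markers kept of 6 summed to 346 on T+O and 301 to 390 on T+T. The 4 smooth muscle markers had 359.98 against 408 to 424, and the 3 macrophage markers kept of 4 had 148 against 180 to 224. These 2 sums and that of the spermatid markers set T+O below all T+T arrays, for the spermatid markers narrowly on T+T replicate 3 (26750). The largest parts of the spermatid sum came from Tnp2 and Prm1, and the T+T mean was above T+O for 6 of the 8. Acrv1 had 266 on T+O and 160, 232 and 228 on T+T, and Spa17 had 2216 and 1583, 2209 and 2055. Another Odf2 probe set kept had 122 on T+O and 90.2, 96.6 and 109 on T+T. Of the smooth muscle markers, the T+T mean was below T+O for Myh11 only. The macrophage marker Csf1r had another probe set kept that is not in the sum. It had 44.1 on T+O and 27.5, 62.4 and 48.2 on T+T, with T+O inside the T+T values. Of 2 named epididymis markers only Gpx5 was kept, at 39.3 against 28.4 to 53.1. Among the RNA integrity controls, the ratio of 3′ over 5′ probe sets for Gapdh was 1.20 on T+O and 0.809 to 0.886 on T+T, and that of pyruvate carboxylase was 3.76 against 1.76 to 2.00. That of Actb was 1.53, inside its T+T range of 1.17 to 1.66. Hsd3b6 (Leydig cell), Sycp3 (spermatocyte), Adgre1 (macrophage) and Lcn5 (epididymis) lay under the filter, and no gene of these lists passed in limma. The part of these differences in the values of Rhox5, Tsx and Drd4 was not tested.

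Among 15 genes listed as androgen-responsive in the testis, 11 were kept, the 3 genes above included. None passed in either direction (limma, lowest adjusted p = 0.62), and 1 had an unadjusted p under 0.05. The T+T mean was above T+O for 5 and below for 6. The list's median difference was -0.05 on the log2 scale, against 0.03 over all probe sets kept. Tpd52l1, a coiled-coil protein of the tumour protein D52 family, had 62.7 on T+O and 95.1, 88.2 and 128 on the T+T arrays, a log2 difference of 0.63 ± 0.26 (SE; adjusted p = 0.62, limma). It had the widest difference of the list, with all T+T arrays above T+O as for Rhox5 and Drd4. At the other end B4galnt1, an enzyme of ganglioside synthesis, had 80.8 on T+O and 76.0, 66.3 and 59.5 on T+T, a log2 difference of -0.24. All T+T arrays lay below T+O for it, as for Tsx. Eppin is not analysed here.

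Of 18 genes listed for androgen signalling (chaperones, androgen-converting enzymes, coregulators and others), 11 had a named probe set and 8 were kept. None passed (limma, lowest adjusted p = 0.60), and 1 had an unadjusted p under 0.05. Hsp90aa1, a chaperone that holds steroid receptors ready for hormone, had 4065 on T+O and 1651, 2062 and 3305 on T+T, a log2 difference of -0.86 ± 0.34 (SE; adjusted p = 0.60, limma). All 3 T+T arrays lay below T+O for it. Fkbp5, a co-chaperone induced by androgen and glucocorticoid in many tissues, had 167 on T+O and 162, 210 and 173 on T+T, with T+O inside the T+T values. The coactivator Ncoa2 had 28.3 on T+O and 50.5, 34.0 and 52.4 on T+T, a log2 difference of 0.52, and its relative Ncoa1 had 30.6 against 12.2, 22.8 and 40.9. The T+T arrays thus spread to both sides of T+O for Ncoa1 and to 1 side for Ncoa2.

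**Figure D4:**
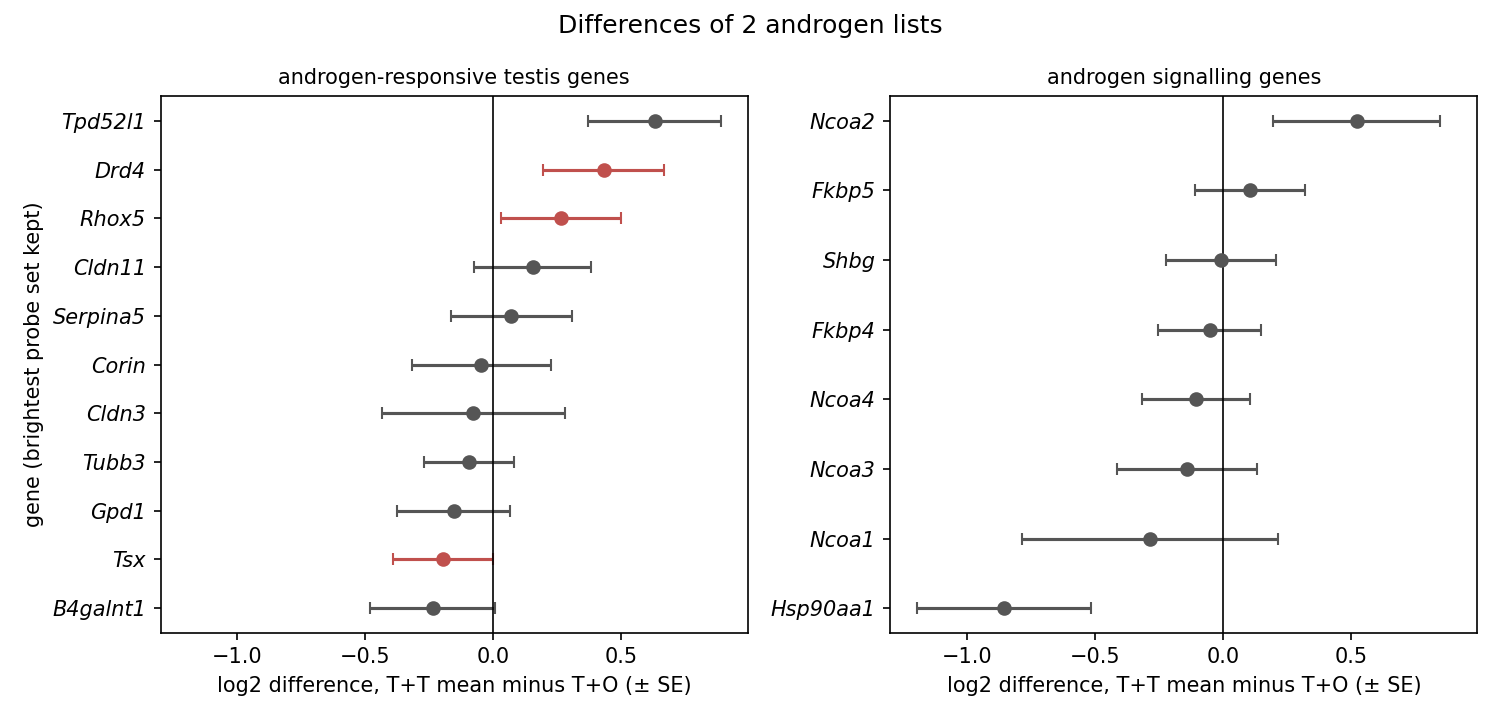
Log2 difference of the T+T mean from T+O with its limma standard error (horizontal axis) for the 11 androgen-responsive testis genes (left) and the 8 androgen signalling genes (right) that were kept, with Rhox5, Tsx and Drd4 in red. The differences run from -0.24 for B4galnt1 to 0.63 for Tpd52l1 on the left, and from -0.86 for Hsp90aa1 to 0.52 for Ncoa2 on the right.

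The relatives and neighbours of each gene were mostly dim. Of the Rhox cluster, Rhox6 was the only other of 14 listed genes with a named probe set, and it had 4.21 on T+O and 4.95, 5.17 and 5.69 on T+T, under the filter level of 22.7. Of 9 dopamine genes, 6 had a named probe set, and 3 of these lay under the filter (Drd3, the dopamine transporter Slc6a3 and the enzyme Ddc). Drd2, the receptor that founds the class to which Drd4 belongs, had 27.6 on T+O and 40.03, 38.6 and 30.3 on T+T, 0.29 higher on the log2 scale (adjusted p = 0.89, limma). Th, which makes the dopamine precursor, had 17.4 on T+O and 44.2, 18.3 and 31.3 on T+T. The 3 dopamine genes kept, Drd4 included, had their T+T arrays above T+O, as did 29.5% of all probe sets kept, and none passed. Drd2 lay little above the filter level. Th lay under it on T+O and T+T replicate 2, so it was kept through its higher T+T arrays, which favours this order. For the filtered Drd3, Slc6a3 and Ddc, T+O lay inside the T+T values.

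Around Tsx in the X inactivation centre, 6 of 11 listed genes had a named probe set and 4 lay under the filter. Xist, the RNA that silences the X chromosome in female cells, had 1.92 on T+O and 2.07, 7.43 and 11.1 on T+T. Chic1, Cdx4 and Nap1l2 lay under the filter too. Rlim, a ubiquitin ligase that activates Xist, was the other gene kept, with 58.6 on T+O and 7.25, 33.3 and 10.8 on T+T, a log2 difference of -1.46 ± 0.56 (SE; adjusted p = 0.58, limma). Its T+T arrays lay below T+O, as did those of Tsx and of 23.7% of all probe sets kept. The T+T mean of Rlim, 17.1, lay under the filter level of 22.7, so Rlim was kept through T+O, which favours this order. Its other probe set was under the filter and had 1.92 on T+O and 6.79, 8.23 and 2.42 on T+T.

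The probe sets most like each gene were sought by the root mean square distance between log2 profiles centred on their own means, over 4 arrays. For Rhox5 these were Specc1, the RNA-editing enzyme Adar and Dolpp1, a phosphatase of dolichol recycling, at distances of 0.010, 0.013 and 0.016. For Tsx they were the RNA-binding Atxn2, the sorting nexin Snx5 and the DNA methyltransferase Dnmt1, at 0.0093, 0.018 and 0.018. For Drd4 they were Bnip2, the zinc finger gene Zfp574 and the myosin light chain Myl12b, at 0.023, 0.023 and 0.034. Dnmt1 had 249 on T+O and 202, 218 and 246 on T+T, beside 267, 212, 231 and 255 for Tsx. Such likeness is common with 4 arrays: 320 other probe sets kept lay within a distance of 0.1 of Rhox5, 542 of Tsx and 144 of Drd4. By another measure, a Pearson's r over 0.95, 200 (2.68%) were like Rhox5, 405 (5.43%) like Tsx and 190 (2.55%) like Drd4.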

How the data were processed

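The deposited values are signal intensity values per probe set on a linear scale, 1 column per array, with their software not given in the sources used here. Control probe sets (66) were left out. Each array was scaled so that its mean after trimming 2% at each end equalled the mean of the 4, with factors of 0.779 to 1.33. An offset of 10 (the 25th percentile of scaled values, rounded) was added before log2, and probe sets with a mean above the 40th percentile (22.7) were kept. T+T minus T+O was fitted over the 7453 kept with limma 3.58.1 in R 4.3.3 (eBayes with intensity trend, two-sided, Benjamini-Hochberg, threshold 0.05), with 2 residual and 5.74 prior degrees of freedom; T+O is assumed to vary like T+T. The code was tested on simulated data. Symbols came from the platform annotation, updated by gene ID (10817 of 10833), and promoters from RefSeq. A gene outside the 3 is represented by its brightest probe set kept. Named list genes are the 2 highest and 2 lowest of each androgen, Rhox, dopamine and X inactivation list, and Eppin, Xist and Fkbp5 where measured. The marker lists are given by counts and sums. Of them, Kitl, Inhbb, Sycp1, Ccna1, Tnp2, Prm1, Acrv1, Spa17 and Myh11 were picked after their values were seen. So were the other probe sets of Clu, Gata1, Dhh, Odf2 and Csf1r. Another listed gene is not reported here. Members and lists were chosen with earlier results of these data known. The number of arrays limits the precision. Alternatives were other scalings, offsets, filters, no trend, the second reading of the labels and leaving out each T+T array.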

Additional observations from a re-analysis of the deposited data

How the results depend on the processing

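The count of members past the threshold was 0 under every alternative run for it, and so was that of androgen-responsive list genes, which was not recomputed with scaling to Sertoli cell markers. Members were followed over 13 alternatives, 1 of them (scaling to Sertoli cell markers) added after seeing the data. The difference stayed negative for Tsx (-0.40 to -0.13 on the log2 scale) and positive for Drd4 (0.24 to 0.51). Under the second reading of the labels it is T+T replicate 1 minus the mean of the other arrays, and not a difference from T+O. Rhox5 kept its sign in 12 and was -0.14 under the second reading. The list median of -0.05 became 0.071 with the filter at the 60th percentile and -0.21 without scaling. The 2 probe sets past the threshold became 6 under either median scaling or the 50th-percentile offset, 5 without scaling, and 0 after quantile scaling, with no filter, without the trend and under the second reading. Without T+T replicate 1 there were 63, without replicate 2 12 and without replicate 3 1, none of them a member. The 301 probe sets 1.5-fold to 1 side on all T+T arrays became 167 with the stricter filter, 523 with none, 190 unscaled, 155 with the higher offset, and 416 to 653 with 1 T+T array left out. The 1329 of the matched pair became 703, 2345 and 733 with the stricter filter, none and the higher offset. No paired analysis was possible because T+O is a single array whose number pairs it with nothing. Signal over background could not be judged, since no detection calls were used. The causes of these changes were not tested.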
